A study of Danio rerio with 13 samples.

Results

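The livers of 3 tert-/- and 5 tert+/+ zebrafish were compared gene by gene, with a block for livers whose RNA also held genes of the intestine, and 8 of the 13 livers of the series entered the comparison. The pair of block levels was chosen by a measured value, the level of apoea. The block separates livers with apoea (ENSDARG00000102004), an apolipoprotein gene, above 1000 CPM (counts scaled to a common library size) from those below 100 CPM. All fish were 3-month-old males of the AB strain, either wild type (tert+/+) or homozygous for the mutant allele hu3430 of tert, and 5 tert+/- livers of the same strain, age and sex were left out of the fit. Each liver has a fish number of its own and counts as 1 animal, and the generation, parentage and batch of the fish are not given in the sources used here, so that family or batch and genotype cannot be told apart. The methods name the line by its allele, and the introduction of the paper describes the mutation as nonsense.

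Telomerase adds repeats to the ends of chromosomes, and tert encodes its catalytic subunit. Cells without it lose telomere repeats as they divide. Short telomeres are known to activate p53, and in zebrafish without Tert dividing tissues such as the gut and testis are known to degenerate early, while most hepatocytes divide rarely. The liver makes bile acids, plasma proteins and lipoproteins, and it handles cholesterol, haem, iron, retinoids and steroid hormones. The question addressed was whether the loss of tert changes gene expression in this organ once intestinal RNA is allowed for.

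The apoea values that set the block are a description and were not tested. With counts divided by column totals, apoea was at 18930 CPM in tert+/+ replicate 5 and 11863 CPM in tert-/- replicate 1, while the liver just below the threshold, tert+/+ replicate 4, had 0.984 CPM. The block therefore holds 1 liver of each genotype, called the intestine-marked pair here, and the 6 other livers are 4 tert+/+ and 2 tert-/-. Of 28 intestine markers tested besides apoea, 26 were higher in both livers of the pair than in each of the 6 others. These markers took 6.40% of the counts in tert+/+ replicate 5 and 6.14% in tert-/- replicate 1, against 0.1301% to 0.3515% in the 6 others. The label of the tissue held for all 8 livers, since hepatocyte markers took 6.70% and 8.42% of the counts in the pair and 12.6% to 30.6% in the 6 others. Of 34 hepatocyte markers, 30 were lower in both livers of the pair than in each of the 6 others. The cause was not tested. Added RNA of the intestine, fewer hepatocytes and less RNA per hepatocyte cannot be told apart in bulk tissue.

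Other libraries stood apart in ways the block does not hold. Exocrine pancreas markers took 1.08% of the counts in tert-/- replicate 1 and 0.00992% in tert+/+ replicate 5, so the pair was matched for intestine but not for pancreas. The 6 other livers had 0.0156% to 0.0994%. Heart muscle markers took 1.26% in tert+/+ replicate 1 and at most 0.00456% in the other 7 livers. Genes encoded by the mitochondrial genome took 54.7% in tert+/+ replicate 4 and 32.8% in tert-/- replicate 2, against 7.926% to 21.04% in the other 6. Library totals ran from 17801374 to 34956035 counts, and tert+/+ replicate 1 had the lowest.

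No gene passed an adjusted p of 0.05 in the edgeR quasi-likelihood test with the block (0 of 16778 genes tested, 0%, Benjamini-Hochberg adjustment), and the lowest adjusted p was 0.228. At an unadjusted p under 0.05 there were 238 genes (1.42%), of which 139 were higher (0.828%) and 99 lower (0.59%) in tert-/-. An even spread of p-values would give 838.9 genes. DESeq2 (Benjamini-Hochberg adjustment) with the same design and genes called 11 genes (0.0656%), 5 higher (0.0298%) and 6 lower (0.0358%) in tert-/-. It had 333 genes (1.98%) at an unadjusted p under 0.05. DESeq2 gave no p for some of the genes, and its shares are of all 16778 genes entered. Over all genes the median log2 fold change was -0.02, and 46.8% of genes were higher in tert-/-.

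The spread between livers was narrower with the block. The block was set by a value from these same libraries, so this is a description and not a test of the block. The biological coefficient of variation that edgeR estimated was 0.548 with the block and 0.705 without it, each over the genes that passed the filter of its own design. The median standard error of a log2 fold change was 0.429 against 0.539 over the 15251 genes in both fits. The standard error was smaller with the block for 76.8% of these genes. The fold change itself moved little for most genes, by a median of 0.0913 on the log2 scale, but 14.6% of genes changed sign. Without the block 158 genes were at an unadjusted p under 0.05, of which 85 were also among the 238 genes with it.

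**Figure D1:**
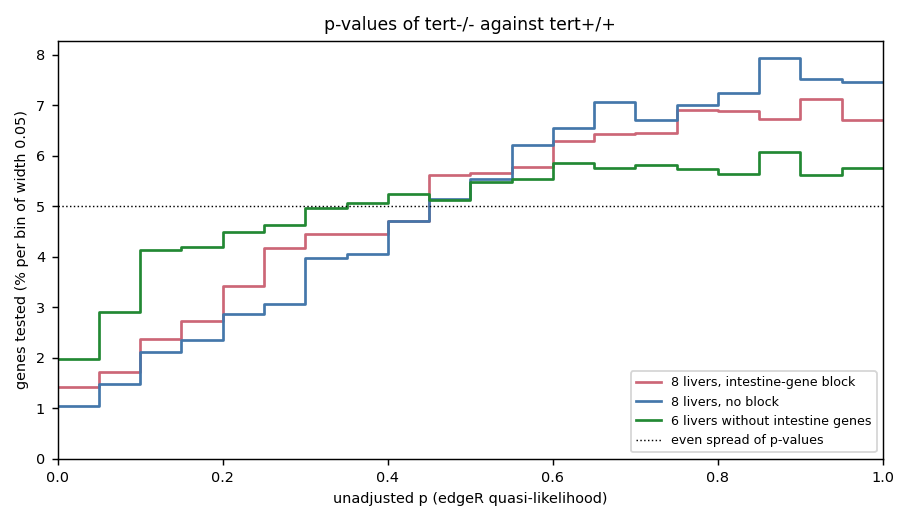
Unadjusted p-values of the edgeR test of tert-/- against tert+/+ in bins of width 0.05 (x axis) with the share of genes tested in each bin in % (y axis), for 8 livers with the intestine-gene block, 8 livers without it and the 6 livers without intestine genes. All 3 lines lie below the even spread of 5% in the lowest bin, at 1.42%, 1.04% and 1.97%.

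The gene with the lowest p was si:dkey-10f21.16 (ENSDARG00000092159), for which no role is given in the annotation used here. It had 0, 0, 1, 1 and 0 counts in the 5 tert+/+ livers and 156, 212 and 92 counts in the 3 tert-/- livers. The groups did not overlap, and both the intestine-marked tert-/- liver and the 2 others were high. From the summed counts the level in tert-/- was 300.02 times that in tert+/+ (95% exact interval 82.6 to 2485, which covers counting error and not the spread between livers). DESeq2 called the gene (log2 fold change 8.39 ± 1.11, SE, adjusted p = 7.57e-10) and edgeR did not (8.10 ± 0.91, SE, adjusted p = 0.228). Among the tert+/- livers it had 0 counts in 3 and 98 and 146 counts in the other 2.

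BTD (ENSDARG00000099596) encodes biotinidase, which frees the vitamin biotin so that it can be used again by the carboxylases. Its level, in TMM-normalized CPM as all levels per liver from here on, was 5.61, 2.84, 4.23, 2.102 and 1.03 in tert+/+ replicates 1 to 5 and 8.98, 14.4 and 32.8 in tert-/- replicates 1 to 3. All 3 tert-/- livers were above all 5 tert+/+ livers, and the lowest value of each genotype was that of its intestine-marked liver. The log2 difference was 3.01 in the marked pair and 2.62 among the 6 other livers. DESeq2 gave a log2 fold change of 2.78 ± 0.46 (SE, adjusted p = 1.33e-05), and edgeR 2.79 ± 0.42 (SE, adjusted p = 0.65). In the 5 tert+/- livers BTD ran from 6.91 to 11.4 CPM, above every tert+/+ liver and overlapping tert-/-. Without the block the DESeq2 adjusted p of BTD on the 8 livers of the comparison was 0.161.

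These were the only 2 of the 11 DESeq2 calls that were kept whichever of the 8 livers was left out, with a highest adjusted p of 6.96e-06 for si:dkey-10f21.16 and of 0.0261 for BTD. Each of the other 9 calls was lost, or its gene fell out with the filter, in at least 2 of the 8 fits. Without either liver of the intestine-marked pair, the other is alone in its block. Both of those fits therefore compare genotypes among the same 6 other livers, here and in all fits with the block below. Leaving out single livers gave 5 to 49 calls by DESeq2, the lowest without tert+/+ replicate 3 and the highest without tert+/+ replicate 1, the liver with heart muscle genes. The count was 8 without tert+/+ replicate 2, 17 without tert+/+ replicate 4, 27 without tert+/+ replicate 5, and 28, 22 and 15 without tert-/- replicates 1, 2 and 3.

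Over all genes tested, all 3 tert-/- livers were above all 5 tert+/+ livers for 47 genes (0.28%) and below them for 42 genes (0.25%). The number that the order of livers alone would give was not worked out, so no excess is read from these counts. SCYL3, a kinase-like protein of the SCY1 family, is one of the 47. It had 19.3, 17.97, 18.1, 18.6 and 25.6 CPM in tert+/+ and 29.3, 36.6 and 36.1 CPM in tert-/-. The marked tert+/+ liver was the highest of its group and the marked tert-/- liver the lowest of its own, so the groups lay closest there (log2 fold change 0.77 ± 0.22, SE, not called). RRM2B, a subunit of ribonucleotide reductase that p53 induces for DNA repair in mammals, is one of the 42. It had 6.62, 6.14, 5.80, 6.78 and 6.89 CPM in tert+/+ and 4.73, 2.42 and 3.46 CPM in tert-/-. The tert+/+ livers lay close together and above every tert-/- liver (log2 fold change -0.94 ± 0.30, SE, not called). In the tert+/- livers RRM2B ran from 2.32 to 9.65 CPM and SCYL3 from 13.3 to 34.3 CPM, each overlapping both groups.

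Of the 6 genes that DESeq2 called lower, tmem176l.3a, a member of the TMEM176 family of membrane proteins, had 4.74, 5.60, 6.74, 4.87 and 9.11 CPM in tert+/+ and 3.63, 1.49 and 2.14 CPM in tert-/-. Its groups did not overlap (log2 fold change -1.51 ± 0.31, SE, DESeq2 adjusted p = 0.00728). The call was lost in 6 of the 8 fits that leave out a liver, where the adjusted p reached 0.174. si:zfos-632h11.5 was at 0.528 to 1.53 CPM in tert+/+ and at 0.112 to 0.186 CPM in tert-/-, again with no overlap (DESeq2 adjusted p = 0.0173), and its call was lost in 7 of 8 such fits.

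zgc:171470 was listed at 0 counts in all 3 tert-/- livers. In tert+/+ it had 114, 89.7, 91.2, 0 and 13.4 CPM. The groups overlapped, since tert+/+ replicate 4, the liver with the highest mitochondrial share, was also at 0. Against the limit that 3 counts over the 3 tert-/- livers allow, the mean of the tert+/+ livers was at least 2075 times higher. DESeq2 called it (adjusted p = 0.01), with an adjusted p of 0.461 at most when single livers were left out, and edgeR called it only without tert+/+ replicate 4 (adjusted p = 0.0167). Among the tert+/- livers 2 were also at 0 and 3 had 8.20 to 131 CPM.

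PRKCQ, ACTA1 and si:dkey-269o24.1 were also called lower by DESeq2, and their low tert-/- values lay only outside the marked pair. PRKCQ, protein kinase C theta, had 2.99, 5.52, 4.23 and 2.48 CPM in tert+/+ replicates 1 to 4 and 0.186 and 0.257 CPM in tert-/- replicates 2 and 3. In the marked pair it was at 6.22 CPM in tert+/+ and 5.397 CPM in tert-/-. The 2 low values carry the call (DESeq2 adjusted p = 0.0435). ACTA1, a muscle actin, was at 2.47 to 16.05 CPM in those 4 tert+/+ livers and at 0.0932 and 0.114 CPM in the 2 tert-/- livers, but at 12.9 and 21.7 CPM in the pair (DESeq2 adjusted p = 0.0116). For si:dkey-269o24.1 the 4 tert+/+ livers had 134, 391, 457 and 1 counts and the 2 tert-/- livers 2 counts each. The pair had 457 and 469 counts, and the groups of this gene came close in 1 tert+/+ liver, replicate 4. Low values were not confined to tert-/-. In the tert+/- livers PRKCQ ran from 0.190 to 3.85 CPM, ACTA1 from 0.309 to 27.2 CPM and si:dkey-269o24.1 from 0.0386 to 17.0 CPM. The interaction of genotype and block was called for 0 of 16778 genes by edgeR, with 417 genes (2.49%) at an unadjusted p under 0.05, and 1 liver of each genotype lies in the pair.

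Among the genes DESeq2 called higher, lnc.425 had 1 count over the 5 tert+/+ livers and 2, 29 and 51 counts in the tert-/- livers (ratio 107 from summed counts, 95% exact interval 18.7 to 4276, counting error only). The marked tert-/- liver was close to tert+/+. arf4b, a small GTPase of the ARF family, was at 0.0955 to 0.412 CPM in the 4 unmarked tert+/+ livers, and at 0.373 and 31.8 CPM in the 2 unmarked tert-/- livers. In the marked pair it was at 20.6 CPM in tert+/+ and 58.7 CPM in tert-/-. Without tert-/- replicate 3 its DESeq2 adjusted p was 0.9999. ENSDARG00000104629 rested on the same liver, with 26.5 CPM in tert-/- replicate 3 and at most 0.478 CPM in each of the other 7.

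**Figure D2:**
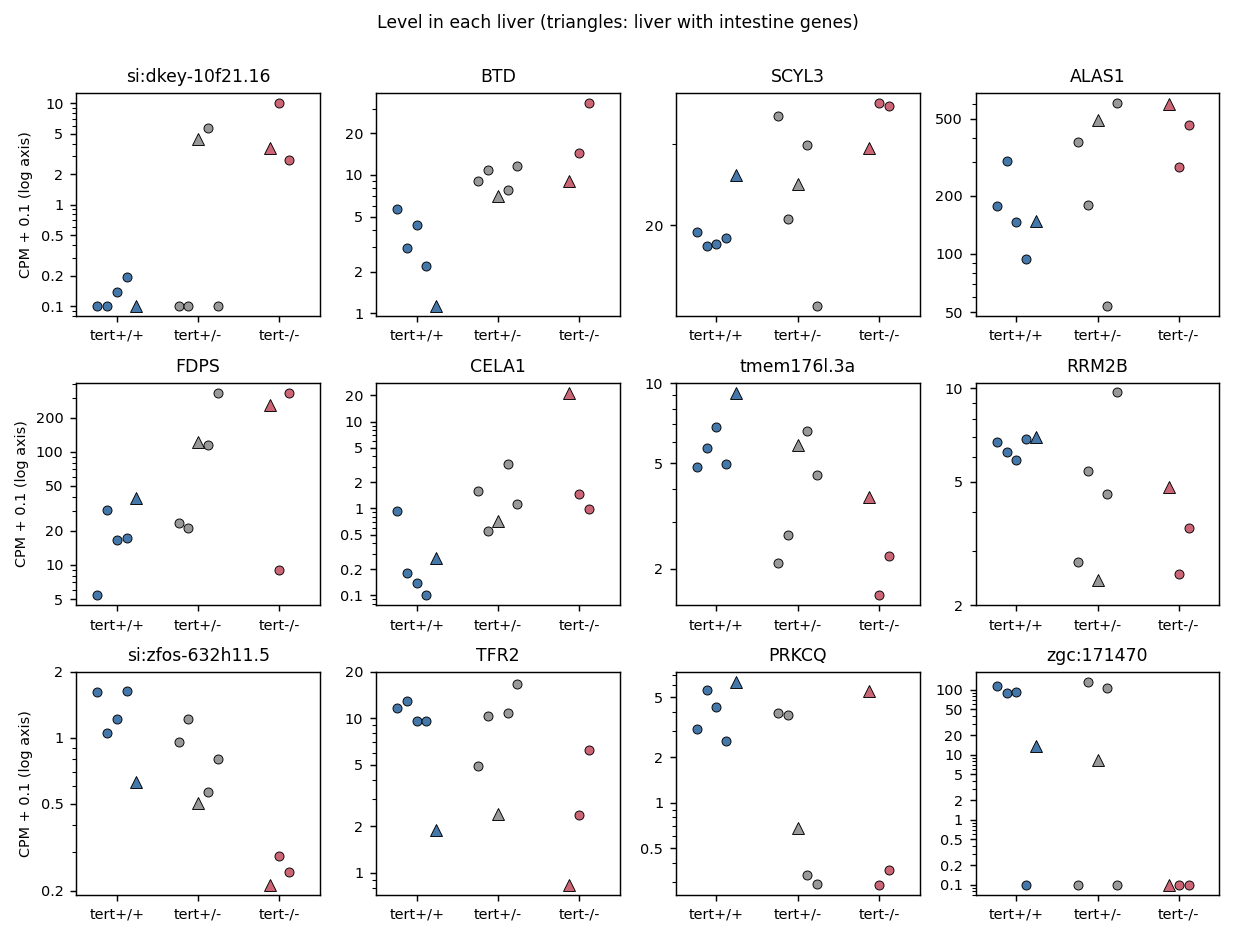
Level of 12 genes in each liver (y axis, TMM-normalized CPM + 0.1, log axis) by genotype (x axis), with triangles for the 3 livers that hold intestine genes and circles for the other 10. BTD lies at 1.03 to 5.61 CPM in tert+/+ and 8.98 to 32.8 CPM in tert-/-, while PRKCQ is low in 2 of 3 tert-/- livers and at 5.397 CPM in the marked one.

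Some of the genes with the lowest edgeR p were measured almost only in the marked pair, where 1 liver is set against 1. LCT, lactase of the intestinal brush border, had 48 counts in tert+/+ replicate 5, 2850 counts in tert-/- replicate 1 and 0 in the 6 others. aqp8a.2, an aquaporin, was at 18.3 and 130.5 CPM in the pair and at most 0.326 CPM elsewhere. zgc:163022 was at 8.97 and 30.6 CPM in the pair and at most 0.0572 CPM elsewhere. Their p-values rest on the spread of other genes rather than on replicates of these values. The block equalises the presence of intestine genes and not their levels: other intestine markers were SLC15A1, a peptide transporter, at 39.1 and 71.2 CPM in the pair, and FABP6, a bile acid carrier of the ileum, at 6.499 and 3.92 CPM.

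The remaining genes of lowest p in the higher direction were slc26a6 and si:dkey-33i11.1. slc26a6, an anion exchanger, was at 0.0955 to 0.947 CPM in the unmarked tert+/+ livers and 1.23 and 1.91 CPM in the unmarked tert-/- livers, and at 2.47 and 17.5 CPM in the pair. si:dkey-33i11.1 was at 2.95 to 4.94 CPM and 7.74 and 19.8 CPM in the unmarked livers of the same groups, and at 0.278 and 0.358 CPM in the pair. Both were higher in tert-/- within each block, and neither was called.

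In the lower direction, TFR2, the transferrin receptor by which hepatocytes sense iron, had 11.6, 12.9, 9.47, 9.46 and 1.81 CPM in tert+/+ and 0.739, 2.28 and 6.12 CPM in tert-/-. Its groups were apart within each block and overlapped across them (log2 fold change -1.34 ± 0.38, SE, not called). PDP1, the phosphatase that switches on pyruvate dehydrogenase, was at 2.58 to 21.25 CPM in tert+/+ and 0.627 to 2.34 CPM in tert-/-, with no overlap. acot14, of the acyl-CoA thioesterases, was at 19.3 to 61.5 CPM and 9.54 to 19.95 CPM in the same order, and ENSDARG00000101893 at 0.9999 to 11.6 CPM and 0.358 to 4.23 CPM. si:ch211-171h4.3 was at 12.2 to 58.1 CPM in the unmarked tert+/+ livers and at 2.0 and 9.37 CPM in the unmarked tert-/- livers. In the pair si:ch211-171h4.3 was at 1.69 CPM in tert+/+ and 0.672 CPM in tert-/-. None of the 4 was called. The groups of acot14, ENSDARG00000101893 and si:ch211-171h4.3 were apart within each block and overlapped across them.

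Of the 238 genes at an unadjusted p under 0.05, 221 differed in the same direction in the marked pair and among the 6 other livers, and 17 did not or were at 0 difference in one of them. Both blocks entered the fit that chose these genes, so this count is a description. Groups apart among the 6 other livers and in the same direction in the pair were counted for 224 genes higher (1.34%) and 212 genes lower (1.26%) in tert-/-, of 16778. No expected number was worked out for these counts, and no excess is read from them.

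**Figure D3:**
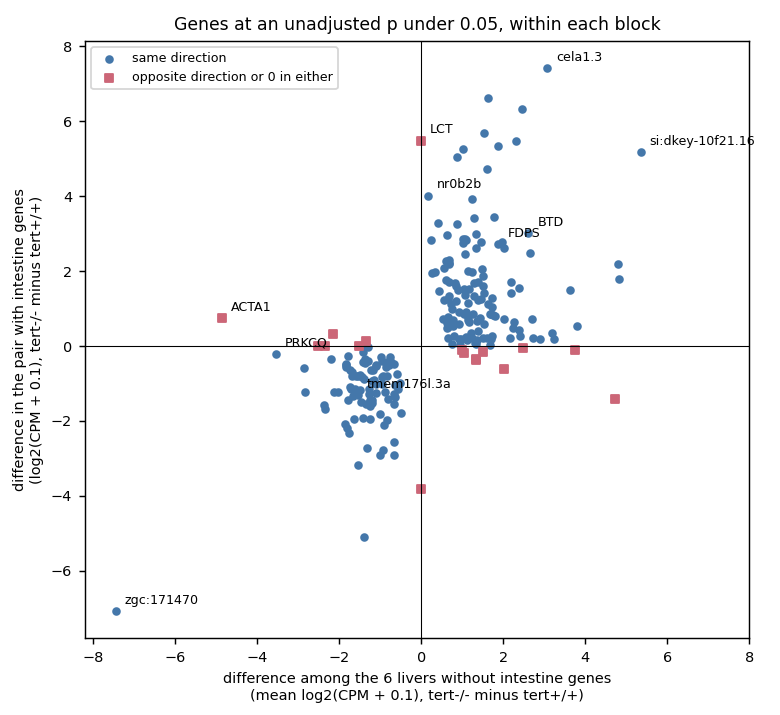
The 238 genes at an unadjusted edgeR p under 0.05, with the log2(CPM + 0.1) difference, tert-/- minus tert+/+, of the means among the 6 livers without intestine genes (x axis) and in the intestine-marked pair (y axis). For 221 genes both differences have the same sign, and LCT, ACTA1 and PRKCQ lie near or across an axis.

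tert itself (TERT, ENSDARG00000042637) was at 2.02, 0.487, 0.674, 2.39 and 11.3 CPM in tert+/+ and 4.88, 5.68 and 3.94 CPM in tert-/-. The 2 unmarked tert-/- livers were above the 4 unmarked tert+/+ livers, and the order was the opposite in the marked pair (log2 fold change 1.09 ± 0.71, SE, not called). The transcript of a gene with a nonsense mutation may still be made, so the labels are not checked by it. Of 21 telomere and telomerase genes tested, 16 were higher and 5 lower in tert-/-, their median on the log2 scale was 0.16, and 0 were at an unadjusted p under 0.05. The median was 0.41 among the 6 unmarked livers, while the median log2 difference in the marked pair was -0.20. ctc1, a telomere-capping subunit, had a log2 fold change of -1.01 ± 0.62 (SE), and tep1, a telomerase-associated protein, of 0.41 ± 0.29 (SE). Of 35 targets of p53 and DNA damage genes, 22 were lower and 13 higher (median -0.12), and the 2 at an unadjusted p under 0.05 were lower. These were RRM2B and sesn3, a sestrin of the stress response, at 11.3 to 24.0 CPM in tert+/+ and 8.89 to 16.1 CPM in tert-/-. GADD45B had the next lowest p, with a log2 fold change of -1.42 ± 0.73 (SE). Over all genes 46.8% were higher in tert-/- and the median was -0.02, against 76.2% higher in the telomere list and 37.1% in the p53 list. At an unadjusted p under 0.05, 0.828% of all genes were higher and 0.59% lower. The counts of each list below are to be read beside these values.

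Genes of cholesterol synthesis were the pathway list with the highest median. Of 28 tested, 23 were higher in tert-/-, 7 of them at an unadjusted p under 0.05 and none lower at that p, and their median on the log2 scale was 0.95 against -0.02 over all genes. Over all genes 46.8% were higher in tert-/-, and 0.828% were higher at that p. None was called by edgeR or DESeq2. FDPS, which makes farnesyl diphosphate, had 5.29, 30.4, 16.5, 17.2 and 38.9 CPM in tert+/+ and 256.7, 8.85 and 329 CPM in tert-/-. The groups overlapped, because tert-/- replicate 2 was low while replicates 1 and 3 were above every tert+/+ liver. The same order held for MSMO1, a sterol demethylase, with 27.4 to 63.6 CPM in tert+/+ and 653, 26.6 and 342 CPM in tert-/-, and for EBP, a sterol isomerase, with 2.71 to 26.6 CPM and 184, 8.67 and 70.18 CPM. tert-/- replicate 2 is the liver with 32.8% mitochondrial counts, and the part of this in the result was not tested. The median of the list was 0.36 without tert+/+ replicate 5, 1.45 without tert-/- replicate 2 and 1.64 without the block. In tert+/-, FDPS ranged from 21.1 to 333 CPM.

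Fatty acid synthesis genes were mixed, with 13 of 22 higher and a median of 0.14 that was -0.15 among the 6 unmarked livers. At an unadjusted p under 0.05, 3 were higher and 1 lower, where over all genes 0.828% were higher and 0.59% lower. ACLY (ENSDARG00000099079), which supplies acetyl-CoA, was at 28.5 to 55.2 CPM in tert+/+ and 127, 29.2 and 138 CPM in tert-/-, a log2 fold change of 1.22 ± 0.49 (SE). SCD, the stearoyl-CoA desaturase, rested on tert-/- replicate 3, at 219 CPM against 0.885 and 1.46 CPM in the other 2 and at most 7.77 CPM in tert+/+. DGAT1 (ENSDARG00000103503), the last enzyme of triglyceride synthesis, which also esterifies retinol, was lower (log2 fold change -1.06 ± 0.38, SE, not called). It was at 204 and 75.9 CPM in the pair, 18.8 to 57.0 CPM in the unmarked tert+/+ livers and 16.6 and 17.9 CPM in the unmarked tert-/- livers. The list holds another gene under each of the symbols ACLY (ENSDARG00000055652) and DGAT1 (ENSDARG00000054914), not described here. Of 30 fatty acid oxidation genes 27 were lower, with a median of -0.15 and 0 at an unadjusted p under 0.05.

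In the list of iron and haem genes 12 of 24 were higher and 12 lower (median 0.00097), and 1 in each direction was at an unadjusted p under 0.05. ALAS1, the first enzyme of haem synthesis, had 178, 302, 146, 93.7 and 147 CPM in tert+/+ and 595, 283 and 463 CPM in tert-/-. The groups overlapped by 1 liver, tert+/+ replicate 2 (log2 fold change 1.33 ± 0.42, SE, not called). The other was TFR2, and tfr1b, a transferrin receptor for iron uptake, followed at 67.1 to 212 CPM in tert+/+ and 156 to 219 CPM in tert-/-. Apart from BTD, the 20 genes of biotin enzymes and other vitamins held none at an unadjusted p under 0.05, and their median was -0.10. The next 2 of them were dhfr, of folate metabolism, and MCCC2, a subunit of a biotin-dependent carboxylase, with log2 fold changes of 0.50 ± 0.43 and -0.30 ± 0.28 (SE).

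Retinoid genes, which the study examined in these fish, were lower for 27 of 39 and higher for 12, with a median log2 fold change of -0.12 against -0.02 over all genes. The 2 at an unadjusted p under 0.05 were DGAT1 (ENSDARG00000103503), lower, and RDH10, a retinol dehydrogenase, higher. RDH10 was at 15.1 to 19.8 CPM in the unmarked tert+/+ livers, 22.8 and 33.5 CPM in the unmarked tert-/- livers and 1.67 and 2.91 CPM in the marked pair (log2 fold change 0.70 ± 0.23, SE, not called). It was higher in tert-/- within each block and overlapped across them. RXRA, a retinoid X receptor, had a log2 fold change of 0.55 ± 0.30 (SE). Of 27 sex hormone genes, 14 were higher and 13 lower, with a median of 0.07 and 0 at an unadjusted p under 0.05. No gene of either list was called by edgeR or DESeq2.

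Enzymes of detoxification were lower for 28 of 46 (median -0.08), with 2 at an unadjusted p under 0.05, both lower. These were cyp2k6, at 1.33 to 13.2 CPM in tert+/+ and 0.918 to 6.43 CPM in tert-/-, and cyp3a65, at 159 to 615 CPM and 109 to 352 CPM. Both are cytochrome P450 enzymes, and both lists of values overlapped between the groups. cyp2k18 had a log2 fold change of -1.12 ± 0.52 (SE). Heat shock genes were even, at 15 of 29 higher (median 0.06), and 1, the transcription factor HSF2, was at an unadjusted p under 0.05. It was at 6.80 to 14.5 CPM in tert+/+ and 13.5 to 20.6 CPM in tert-/- (log2 fold change 0.79 ± 0.25, SE, not called). SERPINH1, a collagen chaperone, and HSP90AA1, a chaperone of the cytosol, followed, with log2 fold changes of 1.35 ± 0.83 and 0.74 ± 0.53 (SE).

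Lists with many members and small medians were the proteasome, with 39 of 42 genes higher and a median of 0.18, and the ribosomal proteins, with 61 of 76 lower and a median of -0.06. The nuclear-encoded respiratory chain had 40 of 59 lower and a median of -0.05. None of these genes was at an unadjusted p under 0.05. All 3 lists changed direction between the blocks. The median log2 difference of the proteasome was 0.33 among the 6 unmarked livers and -0.17 in the marked pair. In the same order it was 0.26 and -0.77 for the ribosomal proteins and 0.16 and -0.56 for the respiratory chain. The proteasome median stayed between 0.06 and 0.31 when single livers were left out, and the ribosomal median ran from -0.33 to 0.21 and was 0.01 with column totals. Clotting factors were lower for 24 of 31 (median -0.09) and acute phase and complement genes for 21 of 38 (median -0.02). The 13 mitochondrially encoded genes were all lower (median -0.29), but the median was 0.92 without tert+/+ replicate 4, -1.16 without tert-/- replicate 2 and 0.03 with column totals.

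Of the other pathway lists, 1 gene of bile acid and cholesterol use (24 tested, median 0.01, higher) and 1 of cell division (27 tested, median -0.12, lower) were at an unadjusted p under 0.05. The latter is RRM2B, already counted among the p53 targets and placed in each list by a match of names alone. The cell division median was 0.38 among the 6 unmarked livers and -0.60 to 0.43 when single livers were left out. There were 0 in glucose and glycogen metabolism (32 tested, median -0.10), the clock (39, -0.10), endoplasmic reticulum stress (33, -0.04), glutathione and oxidative stress (37, -0.01), the interferon response (33, 0.08) and inflammation signalling (29, -0.06).

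**Figure D4:**
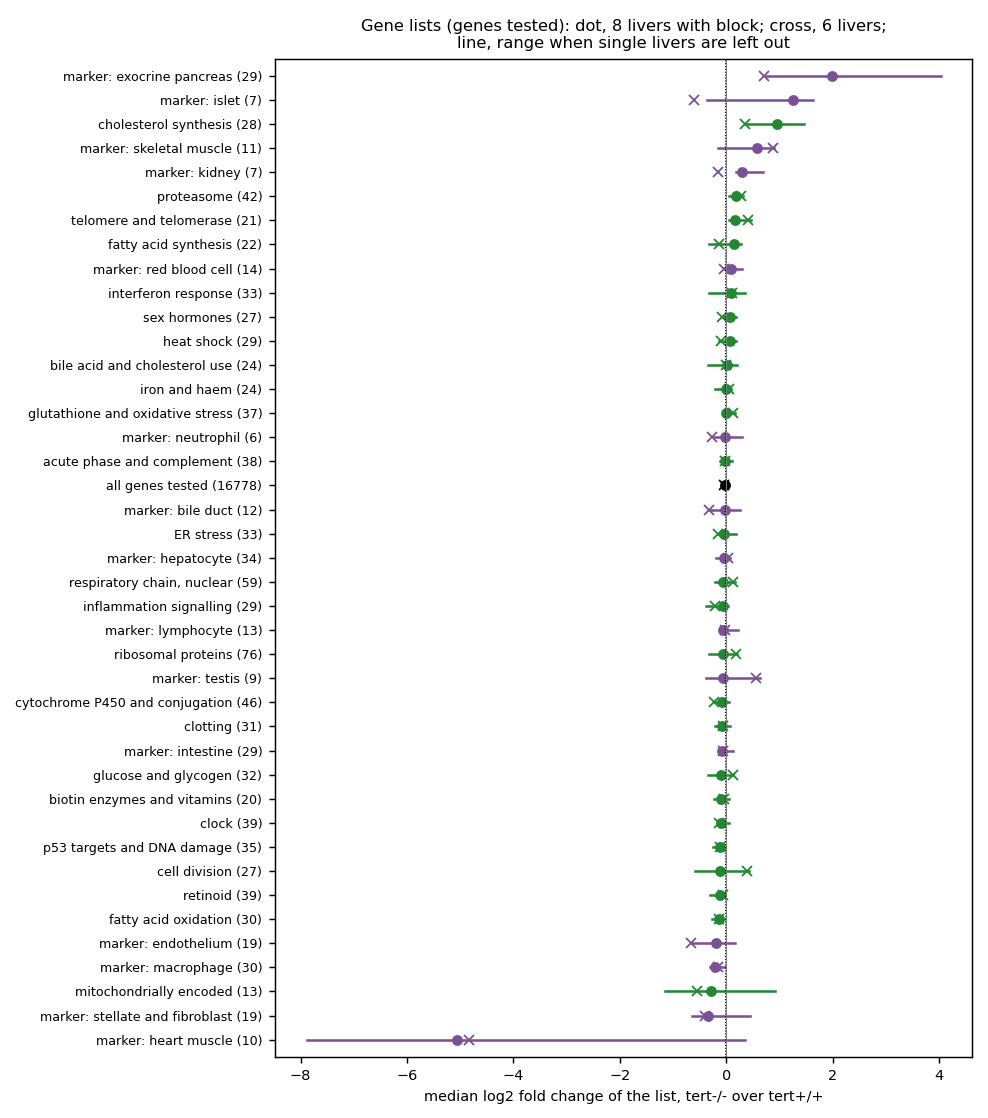
Median log2 fold change, tert-/- over tert+/+, of 40 gene lists and of all genes tested (x axis), with the number of genes tested beside each list. Dots are the fit of 8 livers with the block, crosses the 6 livers without intestine genes, and lines the range when single livers are left out. Cholesterol synthesis lies at 0.95 and all genes at -0.02, while the heart muscle markers move from -5.06 to 0.34 when 1 liver is left out.

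The markers of other cells moved with single livers. All 29 exocrine pancreas genes were higher in tert-/- (median log2 fold change 1.99), 2 of them at an unadjusted p under 0.05. Over all genes 46.8% were higher in tert-/-, and 0.828% were higher at that p. The median of the pancreas list was 0.74 without tert+/+ replicate 5, 4.03 without tert+/+ replicate 1 and 0.70 among the 6 unmarked livers. Its share of counts was 0.0994% in tert+/+ replicate 1, above the 0.0405% and 0.057% of tert-/- replicates 2 and 3. CELA1, an elastase, had 0.828, 0.0812, 0.0374, 0 and 0.167 CPM in tert+/+ and 21.4, 1.35 and 0.886 CPM in tert-/-. All 3 tert-/- livers were above all 5 tert+/+ livers, and the marked tert-/- liver, with 1.08% of its counts on this list, was far above the rest. cela1.3 and CPA1, a carboxypeptidase, had log2 fold changes of 3.71 ± 1.502 and 2.65 ± 1.25 (SE). Both overlapped between the groups, at 1.84 and 3.03 CPM in tert+/+ replicate 1 and 1.46 and 1.86 CPM in tert-/- replicate 3. All 10 heart muscle genes were lower (median -5.06), with 0 at an unadjusted p under 0.05 and a median of 0.34 without tert+/+ replicate 1.

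Macrophage markers were lower for 21 of 30, with a median of -0.22 and 3 at an unadjusted p under 0.05, all lower. The 9 others were higher, where over all genes 46.8% were higher in tert-/- and 0.59% were lower at that p. MFAP4, a marker of zebrafish macrophages, had 1.06, 0.866, 1.16, 0.669 and 10.2 CPM in tert+/+ and 1.05, 0.466 and 0.114 CPM in tert-/-. The marked tert+/+ liver was far above the rest, and among the 6 unmarked livers the groups did not overlap (log2 fold change -2.23 ± 0.58, SE, not called). mfap4.4 was measured almost only in the pair, at 137 and 23.3 CPM. grna, a granulin, was at 7.82 to 13.4 CPM in the unmarked tert+/+ livers and 5.26 and 6.57 CPM in the unmarked tert-/- livers, and at 19.0 and 13.5 CPM in the pair. The list took 0.00574% to 0.0222% of counts in the unmarked tert+/+ livers and 0.0130% and 0.0150% in the unmarked tert-/- livers, and its part in other results was not tested. Members of the mfap4 family are close copies, and reads may be split between them.

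Of the other marker lists, hepatocyte genes had a median of -0.04 (34 tested, 22 lower, 0 at an unadjusted p under 0.05) and intestine genes of -0.09 (29 tested, 15 lower, 1 at that p, LCT, higher). In the islet and kidney lists 1 gene each was higher at that p (7 tested in each, medians 1.24 and 0.29), and the islet median was -0.61 among the 6 unmarked livers. There were 0 in the lists of skeletal muscle (11 tested, median 0.58), red blood cells (14, 0.10), neutrophils (6, -0.02), lymphocytes (13, -0.06), bile duct (12, -0.03), endothelium (19, -0.20), stellate cells and fibroblasts (19, -0.34) and testis (9, -0.06). The median was -0.15 without tert-/- replicate 2 for skeletal muscle, 0.45 without tert+/+ replicate 1 for stellate cells and fibroblasts, 0.63 without tert+/+ replicate 5 for testis and -0.15 among the 6 unmarked livers for kidney. Over all 40 lists, the sign of the median was kept in every fit that left out 1 liver, among the 6 unmarked livers and without the block for 8 only: cholesterol synthesis, fatty acid oxidation, telomere and telomerase, p53 targets, retinoid genes, proteasome, exocrine pancreas and macrophage. The medians of the other lists give no direction that holds across these fits. Telomere and proteasome genes still differed in sign between the blocks. Their median log2 differences were 0.46 and 0.33 among the 6 unmarked livers, but -0.20 and -0.17 in the marked pair. The median of all genes was itself negative in these fits, at -0.067 to -0.003 when single livers were left out. A kept negative sign of a small median therefore says little.

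BTD lies on the chromosome of tert in the zebrafish genome of RefSeq (assembly GRCz12tu, another build than that of the counts), with 21 other placed and tested genes between them. Of the 48 placed and tested genes nearest to tert, up to 25 on each side, 5 were at an unadjusted p under 0.05 (10.4%). Besides BTD these were col14a1b, sema6ca, zhx2b and si:ch211-149a19.3, all lower in tert-/-, and they are named because of their values. sema6ca, a semaphorin gene, was at 5.77 to 27.6 CPM in tert+/+ and 3.35 to 7.44 CPM in tert-/-, and col14a1b, a collagen gene, at 1.29 to 6.496 CPM and 0.269 to 1.83 CPM. RRM2B, si:ch211-171h4.3 and apoea were also placed on the chromosome of tert, farther from it. On the other chromosomes 134 of 11578 placed genes (1.16%) were at that p. Only 71.9% of the genes tested could be placed, under the 80% needed for such a check, so the comparison is void and nothing is drawn from it.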

How the data were processed

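Liver RNA of 13 zebrafish was sequenced from TruSeq libraries. The authors deposited raw counts per gene, and the submitters' processing notes name the build GRCz10, the aligner STAR (2.4.1d), featureCounts (1.4.6-p4) and bcl2fastq (1.8.4), while the methods name kallisto. The annotation release and the strand setting are not given in the sources used here, so reads of overlapping or antisense genes may be shared. The kit does not mark strand. A deposited table of RPKM was not used. The block, gene lists and tests were chosen with earlier results of these data known.

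Of 32105 genes, 16778 passed the edgeR filter for the design of block and genotype over 8 livers. Counts were scaled by TMM and tested by edgeR 4.0.16 (quasi-likelihood) in R 4.3.3, with Benjamini-Hochberg adjustment over all genes tested and a threshold of 0.05. DESeq2 1.42.0, which the methods of the study use, and limma 3.58.1 were alternatives. The edgeR steps were also run on simulated counts with known changes. The share of changes recovered is not given here, so nothing is drawn from that run about changes missed. Levels per liver are TMM-normalized CPM over all 13 livers, and differences within blocks are on log2(CPM + 0.1), which understates the change of low genes. Standard errors of edgeR are the absolute fold change over the square root of F, and those of DESeq2 are its own. p-values rest on the spread between these fish, with the spread of each gene drawn toward that of other genes. Genes measured almost only in the marked pair have no replicates there. No library was a copy of another. The totals, 17801374 counts or more, limit genes under about 3 counts, and intervals cover counting error only.

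Named genes are tert, apoea, the 10 of lowest p in each direction whose mean log2 CPM was 1 or more, and the 3 of lowest p in each list described with members. DESeq2 calls and genes near tert were named after their values were seen. A symbol was found for 26269 genes, in places the symbol of the human gene. The 40 lists hold 25 pathways and 15 cell types and were given counts and medians but no test. A list name also matched a symbol with a, b or a number added, so a list can hold a related gene. For the study's other genotype, tert+/-, values are given beside single genes only. Alternatives were other scalings, filters and thresholds, no block, the intestine share as a covariate, the 6 unmarked livers, all 13 livers, and leaving out each liver in turn. For DESeq2, leaving out livers, no block and the 6 livers were chosen after seeing the data.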

Additional observations from a re-analysis of the deposited data

Results flagged for a closer look

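Among the 5 tert+/+ livers, 25 of the genes given per liver were checked for a value far from the others, and 9 had one. The rate of about 1 in 20 groups that chance gives does not apply here, and no excess is read from the count. The liver tert+/+ replicate 5 was set apart by its apoea level before, and LCT, aqp8a.2 and zgc:163022 were at or near 0 in the 4 unmarked tert+/+ livers. In 7 of the 9 the far liver was the intestine-marked tert+/+ replicate 5. Its level was 11.3 CPM for tert (TERT), 18.3 CPM for aqp8a.2, 1.33 CPM for LCT, 8.97 CPM for zgc:163022, 20.6 CPM for arf4b, 25.6 CPM for SCYL3 and 10.2 CPM for MFAP4. tert+/+ replicate 2 stood apart for PDP1, at 21.25 CPM, and tert+/+ replicate 3 for lnc.425, at 0.0374 CPM, which is 1 count.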

How the results depend on the processing

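The number of genes called by edgeR stayed at 0 under limma-voom, robust dispersion, 4 other scalings, both other filters, no block, the covariate, the 6 unmarked livers, all 13 livers and a threshold of 0.1. It was 11 with DESeq2, 14 with DESeq2 under its default filtering at 0.1, and 0 to 1 when single livers were left out. DESeq2 called 5 to 49 genes when single livers were left out, 3 without the block and 16 among the 6 unmarked livers. No genotype-by-block interaction was called. At an unadjusted p under 0.05 there were 388 genes with limma-voom, 144 with column totals, 374 with no filter, 158 without the block and 183 to 341 when single livers were left out, against 238. Of 1212 fold changes of the 59 genes followed under alternatives, 1202 kept their direction. Besides tert and apoea, these genes were named by their p or by a call in these same livers, so this count is a description. The log2 fold change of apoea was 0.10 with column totals and ran from -0.59 to 0.80 when single livers were left out. In those fits it ran from 0 to 5.43 for LCT, from -1.05 to 4.56 for SCD, from -0.22 to 0.85 for dhfr, from -0.20 to 2.14 for SERPINH1 and from -0.074 to 4.96 for FABP6. The causes were not tested. Of 40 list medians and that of all genes, 26 moved by less than the spread between livers under every alternative run. A move within that spread can still change the sign of a median, so this count does not show that a direction held. The replicate numbers here follow accession order. No paired analysis was possible because the labels give no number shared between the groups. With 3 tert-/- livers, 1 of them set only against 1 tert+/+ liver, a low count of calls does not show that expression did not differ.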
